A study of Mus musculus with 16 samples.

Results

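The Hox genes encode homeodomain transcription factors and sit in 4 chromosomal clusters, Hoxa to Hoxd. Within a cluster the paralog number gives a gene's place, and low numbers are used towards the head of the embryo and high numbers towards the tail. Cells of adult fat depots keep a Hox code set by the part of the body they arose in, so Hox transcripts are often read as a label of depot position. All genes whose symbol is Hoxa, Hoxb, Hoxc or Hoxd followed by a paralog number were taken. The reference annotation holds 39 of them, 36 had a probe on the array, and 25 of those 36 had a probe bright enough to be tested among 15433 tested genes. Hoxc4, Hoxc6 and Hoxc11 were matched to no probe.

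White and brown adipose tissue of male mice was profiled on 16 one-colour Agilent arrays. The 4 groups of 4 arrays were white fat of controls, white fat of knockouts, brown fat of controls and brown fat of knockouts. Controls are called wild type in the design text, and knockouts lack the glucocorticoid receptor (GR, gene Nr3c1) in adipose tissue. The labels give no age, no treatment, no Cre driver and no anatomical site for either fat, so which white depot was dissected is not given in the sources used here. A level below is the log2 of the processed intensity minus the 75th percentile of its array, so levels compare arrays for 1 gene and not 1 gene with another. In whole tissue, fewer cells of a type and less RNA per cell cannot be told apart.

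Where arrays of a group were closer to each other than the error that the scanner software reports, they were averaged and counted as 1 sample. White controls then gave 2 samples (arrays 1 and 4, arrays 2 and 3), white knockouts 2 (array 1, arrays 2 to 4), brown controls 3 (array 1, arrays 2 and 3, array 4) and brown knockouts 2 (array 1, arrays 2 to 4). The design text calls the 4 arrays of a group biological replicates, but nothing ties them to separate animals, so p-values measure the spread between these samples. Between 67.3% and 77% of the spots on an array were well above background, and no spot was saturated.

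The sample made of brown control arrays 2 and 3 matched its label only in part. Its level of Ucp1, the uncoupling protein that defines brown fat, was -0.83, while the other brown samples lay between 5.63 and 8.07 and the white samples between -2.52 and -0.99. The median of 8 brown adipocyte markers was 0.97 in it and 4.92 to 7.08 in the other brown samples. Cidea, Dio2, Elovl3 and Zic1, at 2.75, -0.82, -4.74 and -4.33, were, like Ucp1, below every other brown sample. Cox8b, Cox7a1 and Pdk4, at 7.14, 7.95 and 5.37, lay within the range of the other brown samples and above every white sample. White knockout arrays 2 to 4 also stood apart. Their median of 8 mesothelial markers was -2.26, against 0.35 to 1.72 in the other white samples, and their median of 11 lymphocyte markers was 3.13, against -2.15 to 0.42. Brown samples carried skeletal muscle RNA, with a median of 10 muscle markers between 7.01 and 8.56 against -3.43 to -1.62 in white samples.

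Promoters of 22 Hox genes were found in the RefSeq table (GRCm38.p6), and 14 of these genes were tested. The 250 bases upstream of the start are shown for Hoxb8, Hoxd8, Hoxd9 and Hoxa9. Hoxb8 was seen well above background on every white control array and on no brown control array. Hoxd8 and Hoxd9 had higher levels in brown controls, and the level of Hoxa9 split the arrays of a group. Capitals mark matches on either strand to TGATNNAT, a PBX-HOX site, to TTTATG, a CDX site, and to AGAACA, 1 arm of the glucocorticoid receptor element.
Hoxb8: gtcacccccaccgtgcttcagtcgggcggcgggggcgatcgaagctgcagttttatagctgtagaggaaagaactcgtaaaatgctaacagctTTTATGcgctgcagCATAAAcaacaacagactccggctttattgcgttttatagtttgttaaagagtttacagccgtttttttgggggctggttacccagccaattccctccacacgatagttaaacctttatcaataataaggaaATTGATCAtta
Hoxd8: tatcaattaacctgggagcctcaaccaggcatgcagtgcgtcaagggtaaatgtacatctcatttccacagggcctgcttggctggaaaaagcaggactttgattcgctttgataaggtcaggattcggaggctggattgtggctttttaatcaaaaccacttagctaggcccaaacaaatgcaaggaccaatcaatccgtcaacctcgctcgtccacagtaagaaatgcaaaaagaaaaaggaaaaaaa
Hoxd9: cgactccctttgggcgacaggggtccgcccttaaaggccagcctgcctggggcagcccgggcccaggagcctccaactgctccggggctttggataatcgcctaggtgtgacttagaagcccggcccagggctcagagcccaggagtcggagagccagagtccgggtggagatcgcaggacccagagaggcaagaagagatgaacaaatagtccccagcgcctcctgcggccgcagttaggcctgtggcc
Hoxa9: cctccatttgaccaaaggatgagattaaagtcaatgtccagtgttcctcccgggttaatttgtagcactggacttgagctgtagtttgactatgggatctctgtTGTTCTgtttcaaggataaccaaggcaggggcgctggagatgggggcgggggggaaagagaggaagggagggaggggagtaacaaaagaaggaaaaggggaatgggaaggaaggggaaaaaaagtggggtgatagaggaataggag
These windows lie at chr11:96281655-96281904 on the plus strand, chr2:74704365-74704614 on the plus strand, chr2:74697513-74697762 on the plus strand and chr6:52227371-52227620 on the minus strand, in the same order. The Hoxb8 window holds 2 CDX sites and 1 PBX-HOX site, the Hoxa9 window 1 receptor arm, and the Hoxd8 and Hoxd9 windows no match. Over 32851 promoters, TGATNNAT was present in 7.68%, TTTATG in 10.8% and AGAACA in 16.1%, and over the 24 Hox promoters (some genes have more than 1) in 16.7%, 20.8% and 8.33%. The full element, an inverted repeat of AGAACA with a 3-base spacer, was present in 3 promoters of the table and in 0 of the Hox promoters. A match describes letters only and is neither a bound site nor a cause.

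Detection differed by paralog class, as a description with no test. All 13 central Hox genes with a probe (paralogs 4 to 8) were tested, against 5 of 8 anterior genes (1 to 3) and 7 of 15 posterior genes (9 to 13). By cluster, 9 of 11 Hoxa genes, 8 of 10 Hoxb genes, 3 of 6 Hoxc genes and 5 of 9 Hoxd genes were tested. The filter needed a probe well above background throughout at least 1 group, so a gene seen in 1 group alone could enter through that group. Hoxb8 entered through white controls alone, so a lower level elsewhere was part of its entry. Hoxa10 entered through the brown groups alone, so a lower level in white fat was part of its entry. Hoxd12 entered through brown knockouts alone, so a lower level in the other groups was part of its entry. Of the 25, 21 were above background on all 16 arrays and 4 were not (Hoxa10, Hoxb8, Hoxc8 and Hoxd12).

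The 11 genes left untested were Hoxa11, Hoxa13, Hoxb1, Hoxb13, Hoxc10, Hoxc12, Hoxc13, Hoxd1, Hoxd3, Hoxd11 and Hoxd13. Hoxb1, Hoxc12, Hoxc13, Hoxd1 and Hoxd13 were well above background on 0 of 16 arrays. Hoxa11, a posterior gene of limb and uterine patterning, was above background on 3 of 4 white control arrays and 1 white knockout array. Its white control levels were -3.75, -5.62, -7.27 and -4.02 on arrays 1 to 4, and on brown arrays it was never well above background. Hoxd3 was above background on 3 white control arrays and 1 white knockout array, and on 0 brown arrays, while its other probe was above background on 1 brown knockout array.

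**Figure D1:**
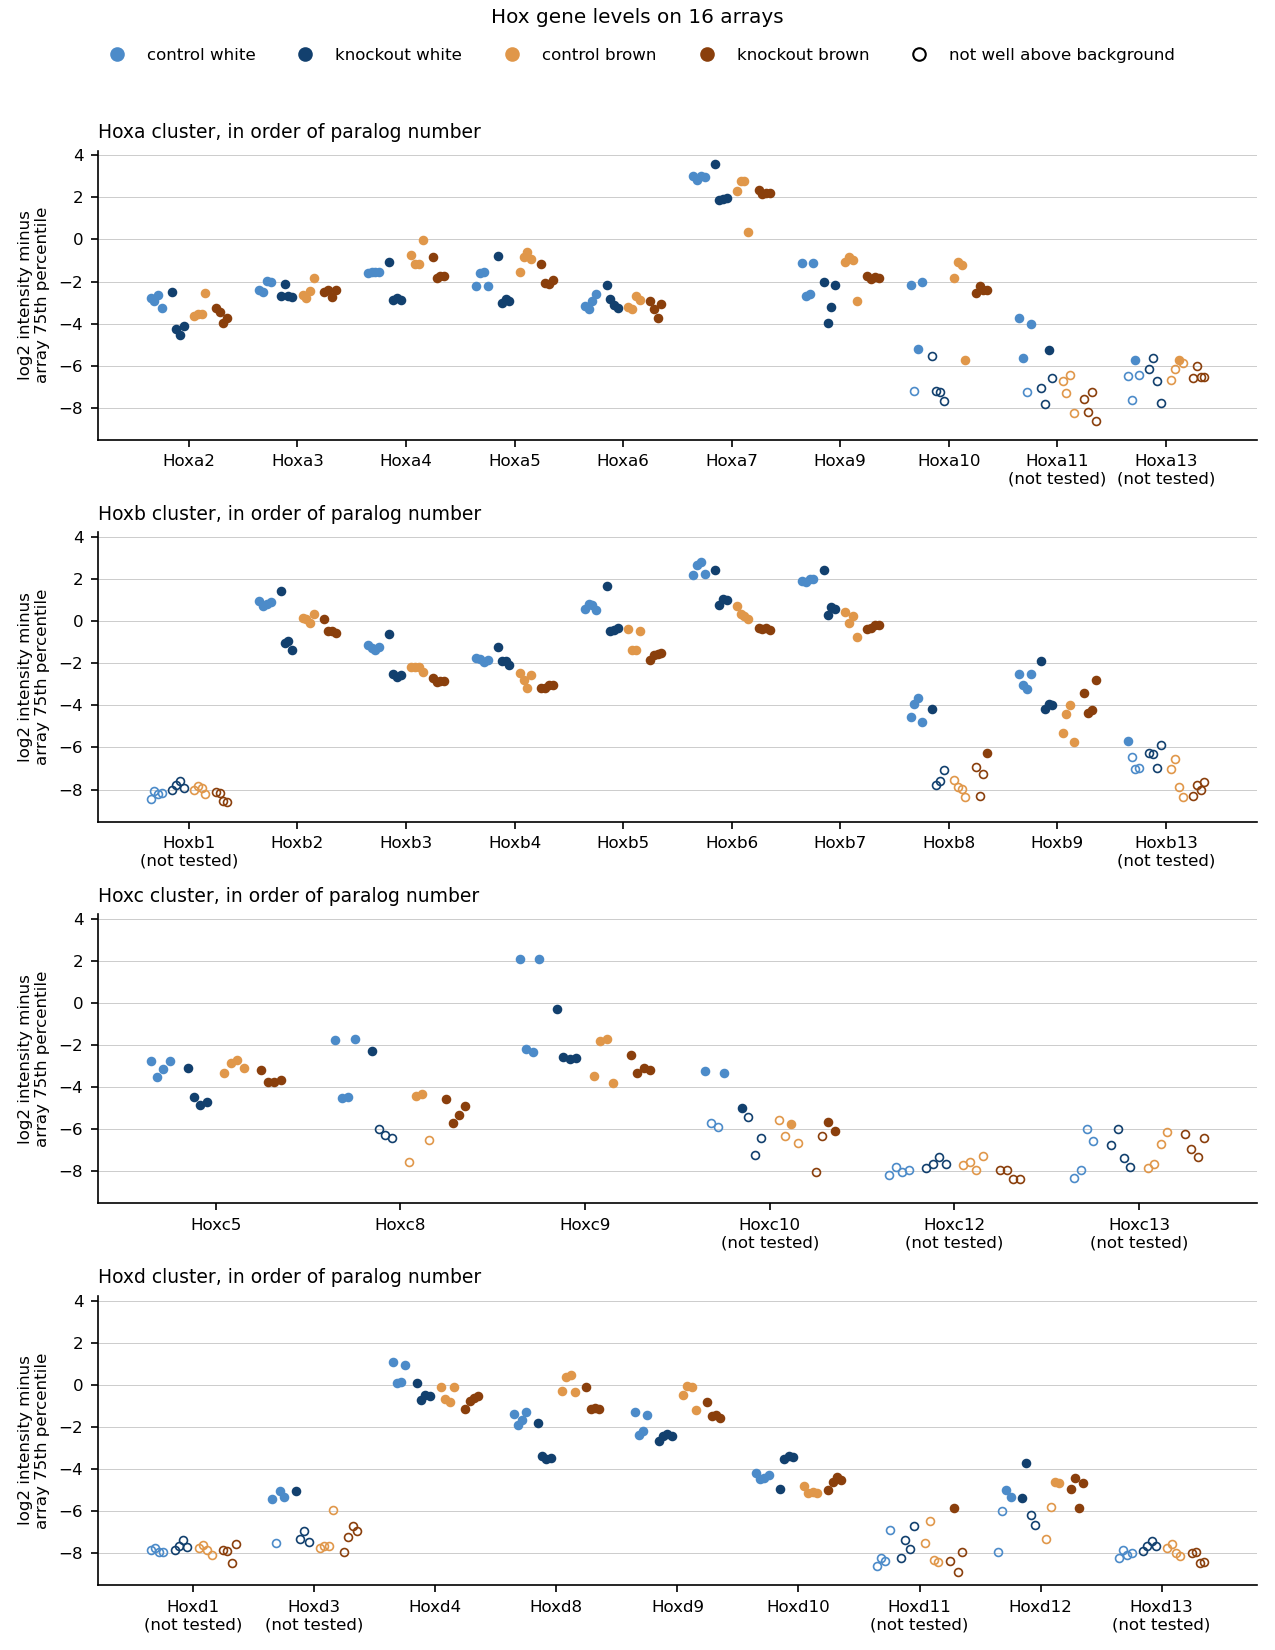
Levels of 35 Hox genes with a probe on every array, one panel per cluster, as log2 intensity minus the 75th percentile of the array; colours give the group and open circles mark arrays where the probe was not well above background. The 8 tested Hoxb genes sit higher in the 4 white control arrays than in the 4 brown control arrays, while Hoxd8 and Hoxd9 sit lower.

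The comparison of brown with white fat in controls asks how the Hox code differs between the tissues. Hoxb6, a central Hoxb gene, was the single Hox gene past the threshold of an adjusted p of 0.05. Its levels were 2.22, 2.69, 2.81 and 2.26 on the white control arrays and 0.70, 0.34, 0.23 and 0.09 on the brown control arrays. Every white array was above every brown one. The means were 2.49 ± 0.36 (SD, n = 2 samples) and 0.36 ± 0.31 (SD, n = 3), a difference of -2.13 ± 0.44 (SE), or 4.39-fold lower in brown fat (limma, adjusted p = 0.0419). So 1 of 25 Hox genes was called, lower in brown, where 5.01% of all genes were called (3.88% higher and 1.13% lower). Without brown control arrays 2 and 3, which lacked Ucp1, the Hoxb6 difference was -2.09 with an adjusted p of 0.146 and the call was lost. The call was also lost without brown control array 1 (-2.30, adjusted p = 0.0848) or array 4 (-2.0, adjusted p = 0.11). Leaving out either white control sample or either brown knockout sample lost it as well.

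All 8 tested Hoxb genes had lower means in brown than in white controls, with a median difference of -1.64 with Hoxb8 at its bound, against -0.09 over all genes. Apart from Hoxb8, which the filter admitted through white controls, the other 7 also had brown arrays that all lay below the white ones, where 26% of all genes did so. With the slide as a block, Hoxb2 and Hoxb3 turned to 0.60 and 0.16, though no slide holds both tissues of the same genotype. Along the cluster the differences were -0.67 for Hoxb2, -0.99 for Hoxb3, -0.83 for Hoxb4, -1.43 for Hoxb5, -2.13 for Hoxb6, -2.0 for Hoxb7 and -2.27 for Hoxb9. With normexp background correction Hoxb6 and Hoxb7 were at -2.13 and -1.93, while Hoxb9 was at -0.47, Hoxb4 at -0.29, Hoxb3 at -0.52 and Hoxb8 at -0.05, so no order along the cluster is read from these values. Beyond Hoxb6, none passed the threshold, the adjusted p being 0.101 for Hoxb7 and 0.117 for Hoxb9.

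Hoxb8, which also has roles in blood progenitors and microglia, was well above background on 4 of 4 white control arrays, at -4.57, -3.95, -3.66 and -4.79. It was well above background on 0 of 4 brown control arrays, at -7.55, -7.90, -7.96 and -8.36. Against the lowest level called above background on each brown array, its level in white controls was at least 3.60-fold higher (adjusted p of the fit 0.061). Hoxb7 read 1.90, 1.84, 1.99 and 2.01 in white controls and 0.44, -0.08, 0.25 and -0.73 in brown controls, so brown array 4 was lowest and the groups did not meet. Hoxb9 read -2.53, -3.04, -3.24 and -2.50 in white controls and -5.32, -4.43, -4.0 and -5.74 in brown controls. Its second probe gave -1.38 for the same difference, and the second Hoxb3 probe -0.71. The second Hoxb8 probe, well above background on 3 of 16 arrays, gave -0.39.

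Hoxb5, a central gene, read 0.58, 0.82, 0.79 and 0.54 in white controls and -0.38, -1.38, -1.36 and -0.47 in brown controls. Brown arrays 2 and 3, the pair without Ucp1, were the lower ones. Hoxb4 stayed between -1.94 and -1.73 in white controls and between -3.20 and -2.44 in brown controls. Hoxb2 and Hoxb3 also separated, with brown ranges of -0.07 to 0.36 and -2.40 to -2.17.

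Hoxd8 and Hoxd9, neighbours in the Hoxd cluster, went the other way. Hoxd8 read -1.41, -1.90, -1.66 and -1.31 in white controls and -0.29, 0.34, 0.48 and -0.36 in brown controls, 2.81-fold higher in brown (difference 1.49 ± 0.55 SE, adjusted p = 0.170). Hoxd9 read -1.32, -2.40, -2.21 and -1.42 against -0.48, -0.05, -0.12 and -1.20, a difference of 1.25 ± 0.43 (adjusted p = 0.148), and its second probe gave 1.27. Neither passed the threshold, though the arrays of each gene did not overlap. Hoxa4 (0.92) and Hoxa5 (0.82) were the other genes whose brown arrays all lay above the white ones, 4 of 25 in all where 22.2% of all genes did so.

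Hoxa7 (-1.14), Hoxd4 (-0.89) and Hoxd10 (-0.68) joined the 8 Hoxb genes in lying lower in brown without overlap. With Hoxb8 among them these were 11 of 25 genes, where 26% of all genes were lower without overlap. Hoxa7 depended on 1 array, reading 2.32, 2.79, 2.77 and 0.33 in brown controls against 2.85 to 2.99 in white. The means of the ninth paralog group lay on both sides of 0. Hoxa9 was at 0.22, Hoxb9 at -2.27, Hoxc9 at -2.91 and Hoxd9 at 1.25, and under normexp the 4 were at 0.28, -0.47, -2.13 and 1.01. The cluster medians were -0.03 for Hoxa, 0.33 for Hoxd and, over 3 genes, -2.91 for Hoxc. The Hoxc median was -0.72 without white control arrays 1 and 4, -4.39 without white control arrays 2 and 3, -0.47 under normexp and -0.67 with the slide as a block.

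Hoxa4, a central gene, read -1.59, -1.56, -1.57 and -1.57 in white controls and -0.75, -1.17, -1.17 and -0.04 in brown controls. Hoxa5, which patterns the lung and upper thorax, read -2.21, -1.58, -1.55 and -2.21 in white and -1.53, -0.84, -0.61 and -0.94 in brown. The highest brown control array was array 4 for Hoxa4 and array 3 for Hoxa5. Hoxd4 read 1.07, 0.09, 0.12 and 0.95 in white controls and -0.13, -0.67, -0.83 and -0.11 in brown controls. Arrays 1 and 4 were the higher ones in either tissue, but the labels pair no arrays between tissues by number.

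Other tested genes overlapped between the control tissues. Hoxa2 and Hoxa3, anterior genes of hindbrain patterning, differed by -0.35 ± 0.57 and -0.13 ± 0.28. Hoxa6 and Hoxc5 differed by -0.03 ± 0.31 and -0.03 ± 0.48. Hoxa10 (1.25 ± 1.62), Hoxc8 (-3.02 ± 1.42) and Hoxc9 (-2.91 ± 1.33) had wide errors, with arrays of the same tissue far apart. Hoxd12, the tested gene of the highest paralog number, was well above background on 10 of 16 arrays and differed by 0.33 ± 0.76.

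Markers of several cell types moved with this comparison. Of 8 mesothelial markers, 5 had lower means in brown than in white controls and 4 of them were called, among them Msln, mesothelin, at -5.61. The other 3 are keratins with higher means in brown, Krt19 at 0.99, Krt8 at 2.97 and Krt18 at 3.39, none of them called, and the list's median was -4.84. All 10 muscle markers were called higher in brown. Means were lower in brown for 10 of 11 lymphocyte markers (median -2.20) and 5 of 5 macrophage markers, with 0 called in either list. Endothelial markers had lower means in 5 of 5, and 2 were called lower, where 1.13% of all genes were. The part of all these markers in the Hox differences was not tested. When the 16 arrays were taken as separate samples, 10 of 25 Hox genes were called, 2 higher and 8 lower, where 39.3% of all genes were. Without brown control arrays 2 and 3, the differences of Hoxb7, Hoxd8 and Hoxd9 were -2.08, 1.24 and 1.0.

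**Figure D2:**
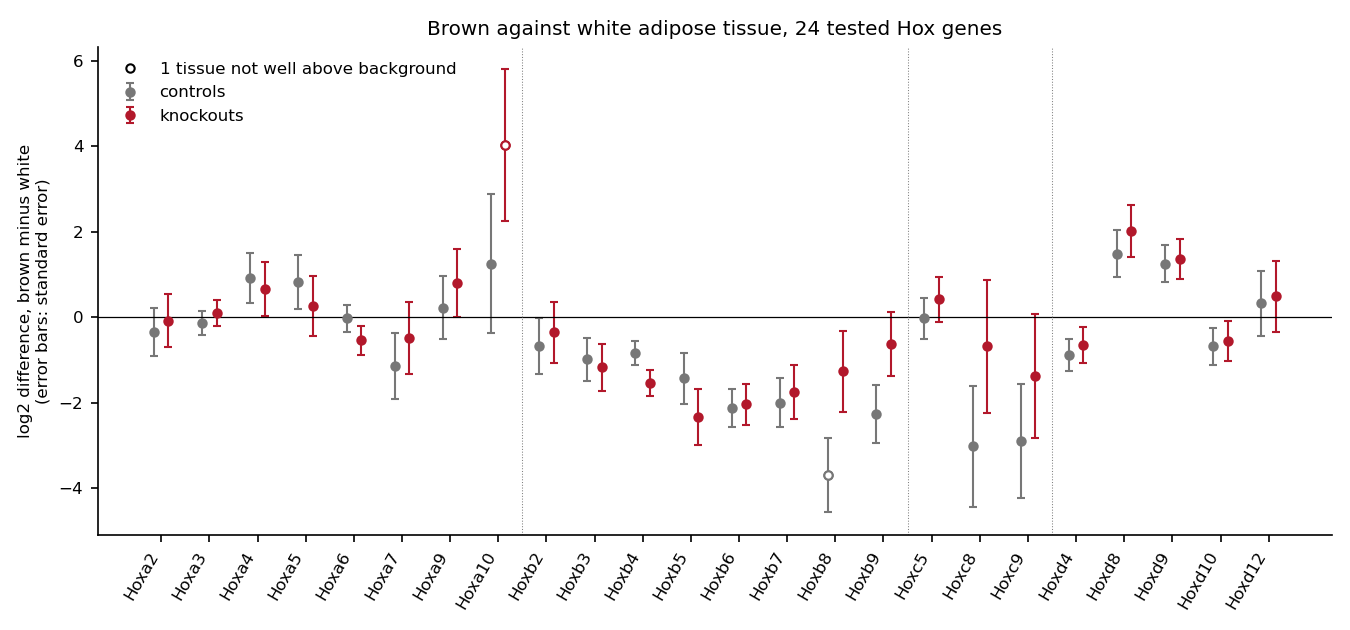
Brown minus white log2 difference of 24 tested Hox genes in controls and in knockouts, with standard errors; dotted lines divide the clusters. The Hoxb differences are below 0 in both genotypes, open circles mark Hoxb8 in controls and Hoxa10 in knockouts, which 1 tissue did not show well above background, and the differences of Hoxd8 (1.49 and 2.02) and Hoxd9 (1.25 and 1.37) are above it.

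In the knockouts, 0 of 25 Hox genes were called between brown and white fat by limma, where 1.5% of all genes were (1.28% higher and 0.214% lower), and 6 had an unadjusted p below 0.05, where 15.3% of all genes did. The 8 Hoxb genes again had lower means in brown, with a median of -1.40, though Hoxb8 was well above background on only 1 array in each tissue. The second Hoxb8 probe went the other way, at 1.43, and was well above background on 2 brown and 0 white knockout arrays. The second Hoxb3 probe gave -0.31, against -1.17 for the first, and the second Hoxb9 probe -1.04. The lowest adjusted p was 0.0683, for Hoxb4, which read -1.23 to -2.06 in white and -3.20 to -3.02 in brown knockouts. Hoxb3, Hoxb4, Hoxb5, Hoxb6 and Hoxb7 did not overlap, where 13.3% of all genes were lower without overlap.

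Hoxb5 differed by -2.34 ± 0.66 and Hoxb6 by -2.04 ± 0.48. The white knockout samples lay far apart for both, with Hoxb5 at 1.67 on array 1 and -0.49, -0.40 and -0.32 on arrays 2 to 4. Without arrays 2 to 4, 7 Hox genes were called, all Hoxb and all lower in brown, where 6.51% of all genes were called. Without array 1, 0 Hox genes and 2.37% of all genes were called, and Hoxb2 and Hoxb9 turned to 0.91 and 0.44. Each of these fits leaves 1 white knockout sample, which is assumed to vary like the other groups.

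Hoxa9, Hoxa10, Hoxd8 and Hoxd9 were higher in brown knockouts without overlap, 4 of 25 where 13.1% of all genes were. The filter admitted Hoxa10 through the brown groups alone, so its higher level in brown was part of its entry. Hoxa10, a posterior gene, was well above background on all 4 brown knockout arrays, at -2.53, -2.22, -2.39 and -2.42, and on 0 white knockout arrays, which makes it at least 9.08-fold higher in brown. Hoxd8 differed by 2.02 ± 0.60 and Hoxd9 by 1.37 ± 0.47, with adjusted p of 0.198 and 0.250.

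Within 1 group, Hoxa and Hoxc genes of high paralog number split the white control arrays. Hoxc9, a posterior gene of the trunk, read 2.10 and 2.09 on arrays 1 and 4 and -2.21 and -2.34 on arrays 2 and 3, a 20.7-fold difference. Hoxa10 read -2.19 and -2.05 on arrays 1 and 4, against -7.19 (not well above background) and -5.22 on arrays 2 and 3, so only array 3 measured the lower level. Of all 15433 tested genes, Hoxc9 (4.37) and Hoxa10 (4.09) had the highest differences in favour of arrays 1 and 4, and Hoxc8 (2.73) was at rank 6. These are single differences between 2 samples with no test.

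Hoxc8 read -1.78 and -1.73 on arrays 1 and 4 and -4.50 and -4.46 on arrays 2 and 3, and Hoxa9 -1.10 and -1.12 against -2.68 and -2.60. Hoxc10, untested, followed with -3.26 and -3.31 against -5.72 and -5.90, well above background on arrays 1 and 4. Hoxa7, by contrast, stayed between 2.85 and 2.99 on these 4 arrays. Of the 25 genes, 5 differed by over 2-fold between the white control samples, where 6.27% of all genes did. The fifth, Hoxd12, had a lower mean on arrays 1 and 4, through array 1. It read -7.93, -6.00, -5.02 and -5.32 on arrays 1 to 4 and was not well above background on arrays 1 and 2. The lymphocyte marker median was -2.15 on arrays 1 and 4 and 0.42 on arrays 2 and 3, and the mesothelial median 1.72 and 0.35; their part was not tested.

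In brown controls Hoxa10, Hoxa9 and Hoxa7 were low on array 4. Hoxa10 read -1.85, -1.09, -1.20 and -5.72 on arrays 1 to 4, Hoxa9 -1.09, -0.85, -0.98 and -2.94, and Hoxa7 fell to 0.33 on array 4 as given above. Between array 1 and arrays 2 and 3, 4 of 25 Hox genes differed by over 2-fold, where 7.63% of all genes did, and between array 1 and array 4, 7 of 25, where 13% did. Between arrays 2 and 3 and array 4, 9 of 25 Hox genes differed by over 2-fold, where 13.3% of all genes did. Each of these counts includes Hoxc8, which was well above background on arrays 2 and 3 alone, at -4.42 and -4.31. The counts with array 1 also include Hoxd12, which was not well above background on array 1. For these genes such differences are not measured levels on both sides. In brown knockouts 1 gene, Hoxd8, differed by over 2-fold between the samples, where 16.8% of all genes did.

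**Figure D3:**
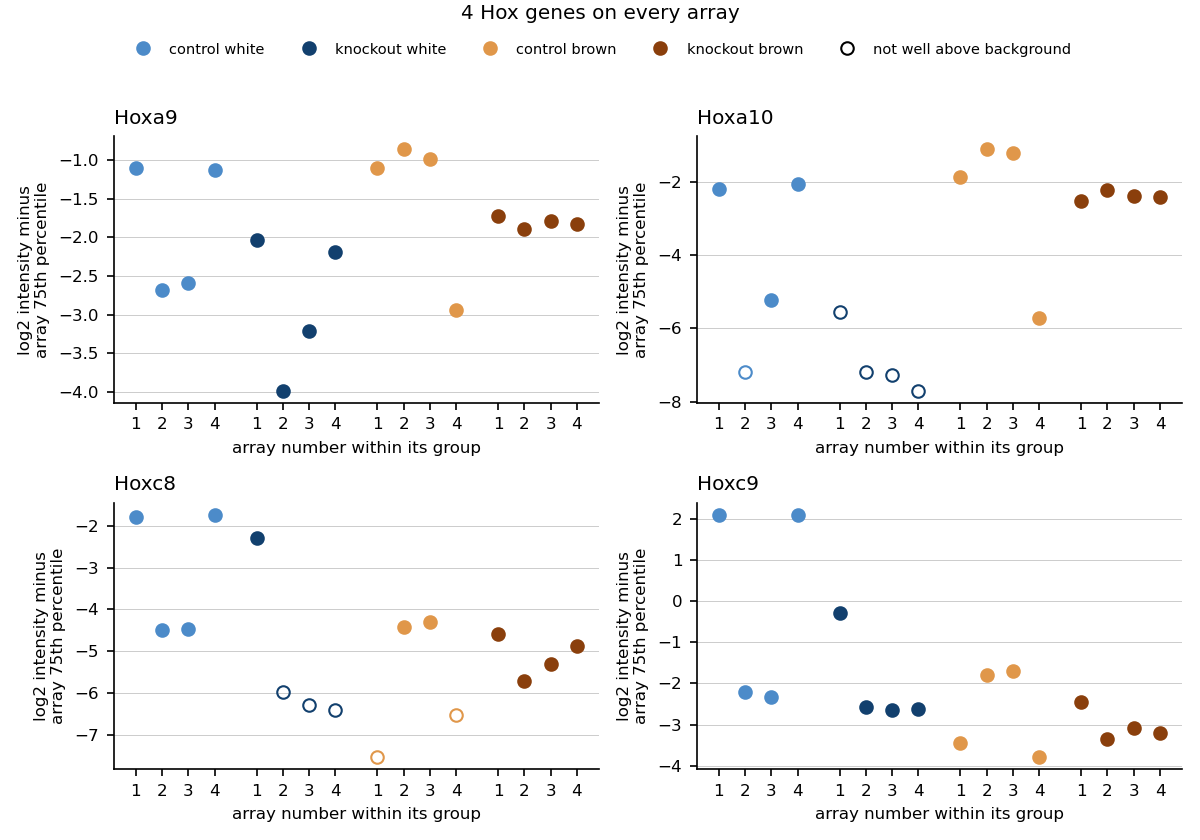
Levels of Hoxa9, Hoxa10, Hoxc8 and Hoxc9 on each array, as log2 intensity minus the 75th percentile of the array, in the order of the array number within the group; open circles mark arrays where the probe was not well above background. White control arrays 1 and 4 lie above arrays 2 and 3 for all 4 genes, with Hoxc9 at 2.10 and 2.09 against -2.21 and -2.34.

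The knockout comparison asks whether loss of the receptor changes the Hox code. Nr3c1 read 2.43, 2.01, 2.27 and 2.42 in white controls and 1.50, 1.24, 1.23 and 1.34 in white knockouts. In brown fat it read 2.46, 2.63, 2.60 and 2.29 in controls and 1.50, 1.59, 1.76 and 1.73 in knockouts. Every knockout array was below every control array of its tissue, by -0.90 ± 0.23 (SE) in white and -0.85 ± 0.21 in brown, and neither difference passed the adjusted threshold (0.414 and 0.620).

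In white fat, limma called 0 of 25 Hox genes, 0 had an unadjusted p below 0.05, and 0% of all genes were called (10% had an unadjusted p below 0.05). Means were lower in knockouts for 20 of the 25, with a median of -0.51 against -0.04 over all genes. The 5 with the smallest p had adjusted p between 0.528 and 0.568, and were Hoxd4, Hoxd8 (-1.09 ± 0.60), Hoxb8 (well above background on 1 of 4 knockout arrays), Hoxb6 (-0.80 ± 0.48) and Hoxc5 (-0.84 ± 0.52). Hoxd4 read 1.07, 0.09, 0.12 and 0.95 in controls and 0.07, -0.71, -0.49 and -0.55 in knockouts, a difference of -0.81 ± 0.42. It was the 1 gene of 25 whose knockout arrays all lay below the controls, where 18.5% of all genes did so.

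The 2 white knockout samples differed from each other. On array 1, 10 of 25 Hox genes were below the control mean and 1 by over 2-fold, where 4.69% of all genes were. On arrays 2 to 4, 23 of 25 were below it and 19 by over 2-fold, where 19.3% of all genes were. Hoxb2 was at 0.57 from the control mean on array 1 and at -1.95 on arrays 2 to 4. Hoxb8 was at 0.047 on array 1 and not well above background on arrays 2 to 4, where only a bound of -1.45 is measured. With Hoxa10, Hoxb8 and Hoxc8 at their bounds the count stayed 19. Averaged over arrays 2 to 4, Hoxd10 (0.90) and Hoxd12 (0.53) were the exceptions above the control mean. Hoxd12 read -3.71, -6.22 and -6.68 on these arrays against a control mean of -6.07, so only array 2 lay above it. On arrays 3 and 4 it was not well above background. Arrays 2 to 4 are the ones with low mesothelial and high lymphocyte markers. Their adipocyte marker median was also low, 5.03 against 6.56 to 6.96 in the other white samples. In white fat 8 of 8 adipocyte markers had lower means in knockouts, with a median of -0.90 and 0 called. The part of these markers was not tested. Without array 1, 5 genes were called lower (Hoxb2, Hoxb3, Hoxb6, Hoxb8 and Hoxc5), where 10.7% of all genes were called; Hoxb8 was below the background limit on those knockout arrays. Without arrays 2 to 4, 0 Hox genes and 0.745% of all genes were. Each of these fits holds 1 white knockout sample and takes its spread from the other groups. On slide 2, which holds both groups, 21 of 25 knockout means were lower, with a median of -0.66.

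**Figure D4:**
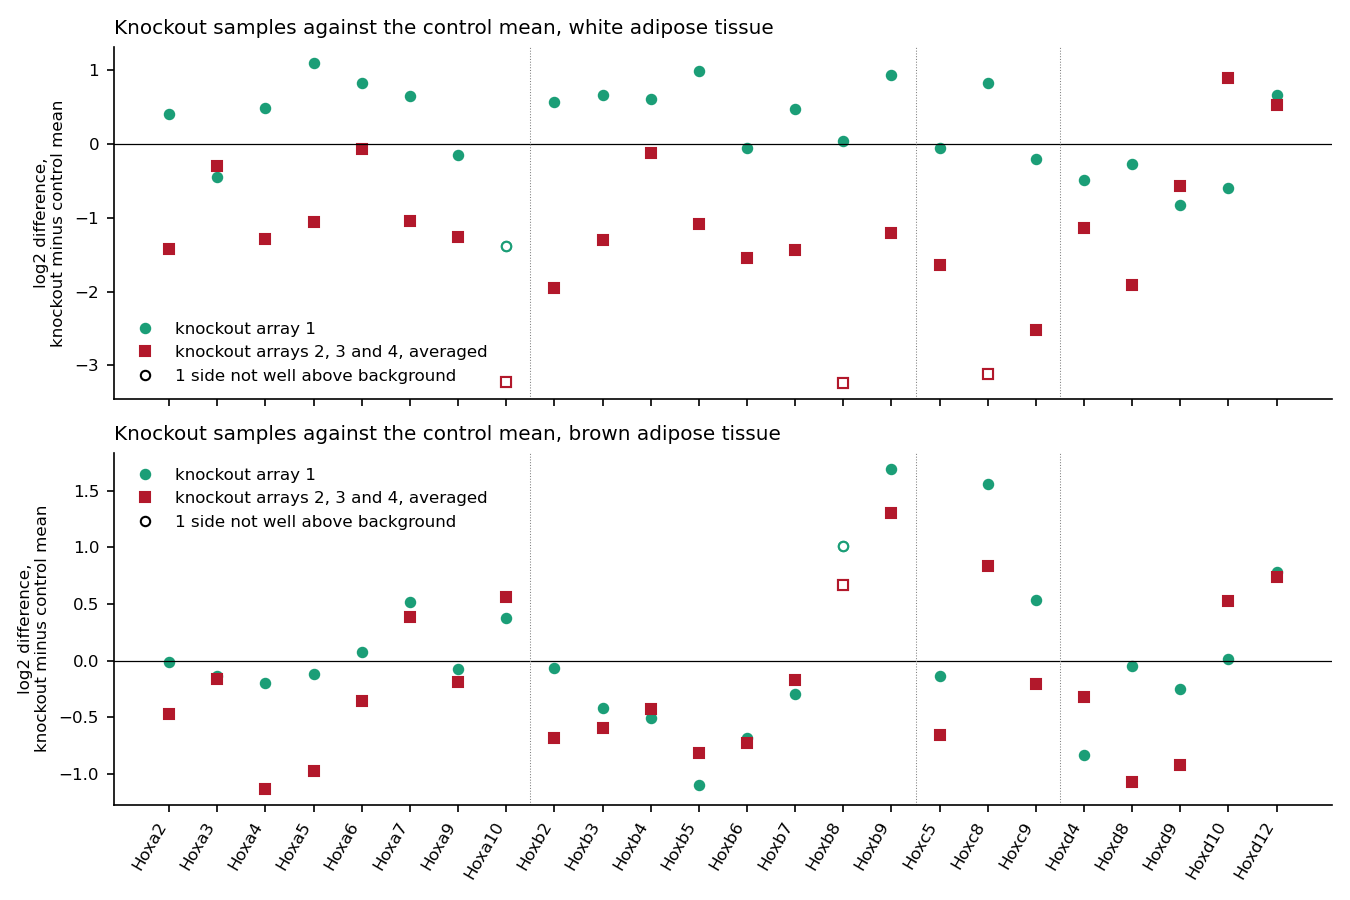
Log2 difference of each knockout sample from the control mean of its tissue, for 24 tested Hox genes in white fat (top) and brown fat (bottom); circles are array 1 and squares the average of arrays 2 to 4, open where 1 side was not well above background. In white fat 22 of 24 squares lie below 0, while 10 of 24 circles do.

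In brown fat, limma called 0 of 25 Hox genes and 0% of all genes, and 0 Hox genes had an unadjusted p below 0.05, where 7.05% of all genes did. Means were lower in knockouts for 16 of 25, with a median of -0.23 against -0.12 over all genes. Beside them, 11 of 11 lymphocyte markers had higher means in brown knockouts (median 4.24, 6 without overlap). Lower means were found for 10 of 10 muscle markers (median -0.79, 6 without overlap) and 8 of 8 adipocyte markers (median -0.36). Over all genes, 11.4% were higher and 16.6% lower without overlap. None of these markers was called, and their part was not tested. Hoxb5 differed by -0.96 ± 0.60, Hoxb6 by -0.71 ± 0.44 and Hoxb3 by -0.51 ± 0.51, and these were the 3 genes whose knockout arrays all lay below the controls, where 16.6% of all genes did so. Hoxb9 had the smallest p, at 1.50 ± 0.69 (adjusted p = 0.620), reading -3.40, -4.35, -4.22 and -2.78 in knockouts. For the same comparison the second Hoxb9 probe gave 0.41 and the second Hoxb3 probe -0.03, both smaller than the first probes gave. Hoxb4 (-0.46 ± 0.28) and Hoxd4 (-0.58 ± 0.38) complete the 5 with the smallest p. Against the control mean, 15 of 25 genes were lower on knockout array 1, 1 of them by over 2-fold (3.8% of all genes), and 17 of 25 on arrays 2 to 4, 2 of them by over 2-fold (10% of all genes). On slide 4, which holds both groups, 18 of 25 knockout means were lower, with a median of -0.31. The difference between the tissues in the knockout effect was called for 0 of 25 genes and 0% of all genes, with 0 Hox genes and 2.6% of all genes at an unadjusted p below 0.05 and every Hox adjusted p at 1.0.

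Cofactors that bind DNA beside Hox proteins were measured for 9 of 9 TALE homeodomain genes. Between brown and white controls the median difference was -0.61; 8 of 9 means were lower in brown, as were 8518 of the 15433 means over all genes, and 1 gene, the one with a higher mean, was called, where 3.88% of all genes were called higher. Pknox2, a PREP-type cofactor, was higher in brown controls by 2.94 ± 0.42 (limma, adjusted p = 0.0115), with samples at -4.37 and -4.63 in white and -1.69, -0.89 and -2.11 in brown. In knockouts its difference was 1.62 ± 0.46 (adjusted p = 0.177). Meis2 was at -1.27 and Meis3 at -0.89 in controls (adjusted p 0.173 and 0.155). In knockouts the smallest p was that of Pbx3, at -1.74 ± 0.34 (adjusted p = 0.0626), and 0 of 9 were called in either knockout comparison.

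Polycomb genes, which repress the clusters, and Trithorax genes, which keep them active, were called in 0 of 18 and 0 of 11 in every comparison. Between brown and white controls the smallest p belonged to Cbx6 (-0.56, adjusted p = 0.256) and to Kat8 (0.59, adjusted p = 0.124). In white fat, the knockout difference was 1.09 ± 0.26 for Jarid2, a subunit of the PRC2 complex (adjusted p = 0.395), and 0.72 ± 0.22 for Kdm6b, a histone demethylase (adjusted p = 0.433). Of the genes beside the clusters, Evx2 was the 1 of 5 tested, at 0.38 between brown and white controls, and of the noncoding RNAs inside the clusters Hoxd3os1 was the 1 of 12 tested. Hoxd3os1 was at 1.47 in controls (adjusted p = 0.122) and 1.81 in knockouts (adjusted p = 0.166), higher in brown without overlap in both.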

How the data were processed

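RNA from 16 adipose tissue samples was hybridised to one-colour Agilent arrays and read with Agilent Feature Extraction 12.0.0.7 (build mm9), per the file headers. The deposited processed signal is a linear fluorescence intensity, background-corrected by the authors' scanner software. The authors' value table holds, per probe, the mean of those intensities without scaling. Probes were named by RefSeq accession from a GRCm38.p6 table, which matched 28223 of 41174 probes. From the deposited intensities, log2 values were taken minus each array's 75th percentile, spots marked as outliers were dropped, spots of a probe were averaged, and a gene took its brightest probe among those well above background throughout at least 1 group of 4 arrays. Arrays of a group whose differences were smaller than the scanner's error estimate (ratio below 1) were averaged, which turned 16 arrays into 9 samples. The number of samples limits the precision. Group means were fitted with limma 3.58.1 in R 4.3.3 with 5 residual degrees of freedom, with Benjamini-Hochberg adjustment over 15433 genes for each comparison and a threshold of 0.05. The files used have no mean signal column, so the normexp alternative used median signals with an offset of 50. Alternatives were 16 separate arrays, quantile and normexp scaling, the authors' unscaled values, other probe filters, the mean of the probes, blocks for slide and replicate number, and leaving out each sample. Replicate numbers pair no samples by the labels, and the correlations of same-numbered arrays are given with the alternatives. Simulated data with 200 changed genes served to test the script. The members and gene lists were chosen with earlier results of these data known. Genes described in full are the Hox genes past a threshold or without overlap between control tissues, the 5 with the smallest p in each knockout comparison, and up to 3 of each other list. Marker lists covered adipocytes, brown adipocytes, muscle, mesothelium and lymphocytes, plus progenitors, endothelium, macrophages and male ducts, which gave medians between brown and white controls of -0.53, -0.50, -1.12 and, for the 1 male duct gene tested, 0.76; the adipocyte median was -0.70. The values of 1 gene are not reported here.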

Additional observations from a re-analysis of the deposited data

How the results depend on the processing

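Counts of Hox genes called are given with the share of all genes called under the same setting. Between brown and white controls the count was 1 (5.01%), and it was 10 (39.3%) with 16 separate arrays, 0 (4.72%) after quantile scaling, 2 (6.06%) with the authors' unscaled values, 0 (3.35%) without a filter on dim probes, 0 (4.65%) with the slide as a block, 2 (7.08%) with a replicate block within genotype, and 3 (4.19%) with brown control arrays 2 and 3 and white knockout arrays 2 to 4 left out together, an alternative chosen after seeing the data. Leaving out 1 sample gave 0 to 6: 6 (11.2%) without white knockout array 1 or without arrays 2 to 4, which enter only through the shared spread, and 0 (1.15% to 5.16%) without any other sample. Between brown and white knockouts the count was 0 (1.5%), against 8 (25.6%) with 16 arrays, 5 (4.76%) with the combined leaving out, and 0 to 7 when leaving out 1 sample, 7 (6.51%) being without white knockout arrays 2 to 4. For the knockout in white fat it was 0 (0%), against 8 (44.7%) with 16 arrays, 8 (46%) with a replicate block on them, and 0 to 5 when leaving out 1 sample, 5 (10.7%) being without white knockout array 1. For the knockout in brown fat it was 0 (0%), against 1 (30.6%) with 16 arrays and 1 (32.1%) with a replicate block on them. The interaction count was 0 throughout the alternatives run. Deviations of same-numbered arrays correlated from 0.29 to 0.57 between the knockout tissues, where arrays 2 to 4 are 1 sample in each and leave 2 distinct pairs, from -0.13 to 0.18 between the control tissues, from -0.52 to 0.41 between the white groups and from -0.54 to -0.04 between the brown groups. With the replicate block, 0 Hox genes were called between the knockout tissues (2.11%).

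Some single genes changed sign, and the cause was not tested. Between brown and white controls, Hoxd10 was 0.37 under normexp, and with the slide as a block Hoxa7 was 0.37, Hoxb3 0.16 and Hoxb2 0.60. Only slide 3 holds both tissues, as knockout white and control brown arrays. No slide holds both tissues of the same genotype, so the slide block cannot separate tissue from slide within a genotype. Between brown and white knockouts, Hoxb2 was 0.12 with 16 arrays, and with the slide as a block Hoxb8 was 0.13, Hoxb9 0.077, Hoxa7 1.31 and Hoxb2 0.94. Leaving out 1 sample gave -2.91 to 0.37 for Hoxb8, -1.70 to 0.44 for Hoxb9, -1.34 to 0.35 for Hoxa7, -1.62 to 0.91 for Hoxb2, -0.23 to 1.55 for Hoxa4, -0.82 to 1.33 for Hoxa5 and -1.31 to 0.18 for Hoxd10; the combined leaving out gave -0.23 for Hoxa4, -0.82 for Hoxa5 and 0.18 for Hoxd10. For the knockout in white fat, Hoxb8 ranged from -3.23 to 0.047 over samples left out and was 0.047 with the combined leaving out. For the interaction, Hoxa6 was 0.11 with the authors' values, and under normexp Hoxb8 was -0.45 and Hoxb9 -0.0057. The authors' unscaled values moved the median of all genes to -0.43 between brown and white controls, so changes there are relative to that shift. Hoxb8 gives bounds only in white knockout arrays 2 to 4, in brown controls and in brown knockout arrays 1 to 3, so its values here are not measured levels there.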
